A study of Mus musculus with 8 samples.

Results

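The Agilent mouse array used here carried 16251 probes for long intergenic non-coding RNA (lincRNA) among 55681 probes that are not controls. They were chosen by their probe number, whose prefix marks the lincRNA content of the design, and no measured value entered that choice. A lincRNA is a long transcript without a protein-coding reading frame, made from its own stretch of DNA between genes. Some lincRNAs act in the nucleus, where they bind chromatin or build nuclear bodies, and others act as decoys or scaffolds for proteins and small RNAs. Many are restricted to a few cell types, and the brain is among the tissues richest in them.

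The array measured hippocampal RNA of Muta Mouse males, a strain that carries a bacterial reporter gene for mutation assays, at 9 weeks of age. A group of 4 control mice received the olive oil vehicle by oral gavage, and 4 BaP-exposed mice received benzo[a]pyrene (BaP), a polycyclic aromatic hydrocarbon, at 70 mg/kg bw a day for 3 days in the same way. Tissue collection followed 24 hr after the last dose. Hippocampal RNA carried Cy5 and was co-hybridized with a universal mouse reference RNA in Cy3, and dyes were not swapped. That reference is a common pool of mouse RNA, so a ratio of Cy5 over Cy3 compares the hippocampus with that pool and not with another brain region. A list of 10 neuronal marker genes all lay above the reference, which cannot tell the hippocampus from another brain region.

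For 4 of the 8 arrays, control mice 3 and 4 and BaP-exposed mice 3 and 4, the title and the source name of the sample labels name opposite groups. These are the arrays of the second slide row, and the 4 arrays of the first row carry labels that agree. The titles were used. The animal numbers follow them. Control mice 3 and 4 are animals 28 and 30, beside 27 and 29. BaP-exposed mice 3 and 4 are animals 71 and 73, beside 72 and 75. Values from each slide row stand beside the probes and loci described most closely. Where groups do not overlap, both rows give the same sign by construction, so their agreement adds no support. The source names exchange the groups of the second row alone, so changes shared by both rows shrink towards 0 under them. Outlier spots numbered 1483 on the array of control mouse 1 and 310 to 371 on each of the others. The smallest 2-sided p of an exact permutation test of 4 mice against 4 is 0.0286. With 8 arrays, the precision of each fold change is limited by their number. The mice were caged singly, and whether littermates were used is not given in the sources used here, so p-values measure the spread between these mice.

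Nearly all lincRNA probes were named by a place in the genome. The label of 16181 probes is a stranded interval of the mm9 assembly, such as chr8:48480224-48480698 on the reverse strand. These labels hold 3540 distinct intervals, of which 1251 had probes to the forward strand alone, 1222 to the reverse strand alone and 1067 to both strands. Counting strands apart gives 4607 strand-specific intervals, with 8171 forward and 8010 reverse probes. Merging overlapping intervals left 2223 loci on 20 chromosomes. The median interval was 7.32 kb long, the shortest 62 bp and the longest 7128487 bp. A strand-specific interval most often had 3 probes (1809 intervals), 690 had 1 probe, and 147 had 10, the most found. Probes of 1 interval share a target and are not independent measurements of the treatment. The other 70 probes carried the names of 12 transcripts (57 probes) or 3 intervals without a strand (13 probes).

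Fewer lincRNA probes than mRNA probes gave a signal in the hippocampus. A probe was counted as well above background when the scanner software marked it so. In Cy5, 54.1%, 40.9%, 40.2% and 37.3% of lincRNA probes were well above background in control mice 1 to 4. In BaP-exposed mice 1 to 4 the shares were 40.8%, 36.6%, 48.9% and 42.2%. The groups overlapped, with a mean of 43.1% ± 7.47 in control mice and 42.1% ± 5.10 in BaP-exposed mice (SD, n = 4 each, exact permutation test, 2-sided, p = 0.800). The highest share belonged to control mouse 1, the array with the most outlier spots, and the control mean without it was 39.5%. The part of the outlier spots in that share was not tested.

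Among the 26536 probes with an NM accession, the RefSeq prefix for mRNA, 74.0% ± 2.84 were well above background in control mice and 74.2% ± 2.27 in BaP-exposed mice (SD, n = 4 each). On the same array the NM share was 31.5 percentage points higher than the lincRNA share (SD 3.66, higher on 8 of 8 arrays, exact permutation test over signs, 2-sided, p = 0.00781, the smallest it can give). The gap was also present in the reference RNA, where the NM share in Cy3 was 27.4 percentage points higher (SD 2.43, on 8 of 8 arrays, the same exact test, p = 0.00781). Within Cy3, the lincRNA share was 49.5% ± 2.97 on the control arrays and 44.6% ± 3.48 on the BaP arrays (exact permutation test, 2-sided, p = 0.143, n = 4 each), although the reference RNA was meant to be the same throughout. Probes to the reverse strand were well above background in Cy5 more often than those to the forward strand, by 3.48 percentage points (SD 0.880, on 8 of 8 arrays, exact permutation test over signs, p = 0.00781). The tests over signs take arrays as units, with the same probes on each, so their p-values do not measure the spread between probes.

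**Figure D1:**
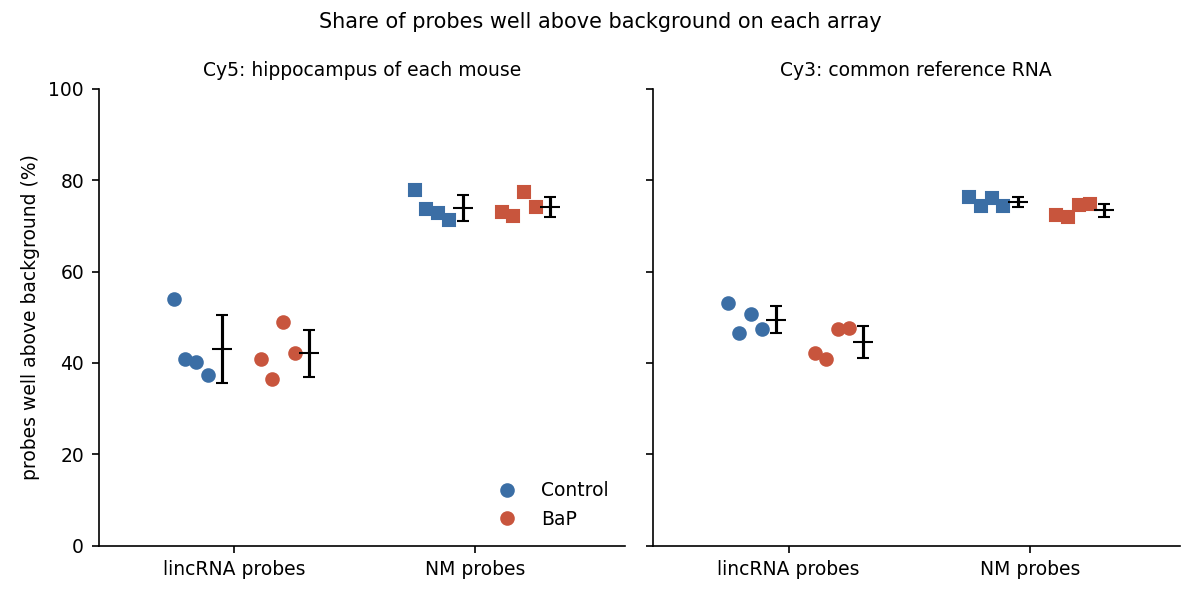
Share of probes well above background (percent, y axis) on each array for lincRNA and NM probes, in Cy5 (left) and in Cy3 (right). Points are arrays in the order of the mouse numbers, and bars give the mean and SD of 4 arrays. The lincRNA shares in Cy5 lie between 36.6% and 54.1%, below the NM shares on each array, and the control and BaP groups overlap.

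The lincRNA probes split almost evenly into probes seen throughout, in part and never. On all 8 arrays, 5041 lincRNA probes (31.0%) were well above background in Cy5, against 68.3% of NM probes. On none of the arrays were 5529 (34.0%), against 16.2% of NM probes. The 6680 lincRNA probes (41.1%) well above background on at least 4 arrays were tested for a change, against 73.8% of NM probes. By chromosome, the tested share of the probes with a stranded interval ran from 33.2% on chromosome 9 to 51.2% on chromosome 19, with 42.5% on the X chromosome. By length, it was 42.0% for intervals of up to 5176 bp, 40.1% from there to 13076 bp, 39.7% to 30287 bp and 42.4% beyond.

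Counted by interval, 2998 of the 4607 strand-specific intervals (65.1%) had at least 1 tested probe, and 747 had each of their probes above background on all 8 arrays. Of the 1067 intervals with probes to both strands, 189 (17.7%) had as many tested as untested probes, or more, on each strand. Another 465 (43.6%) met this on 1 strand, 190 of them on the forward and 275 on the reverse strand, and 413 (38.7%) on neither. Of the 147 strand-specific intervals with 10 probes, 12 had all 10 tested, 11 had none, and 124 lay between, with a median of 4 tested probes over the 147. The most probes for 1 interval, strands together, was 20, in 32 intervals, with 2 to 20 of them tested and a median of 9.5.

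Measured against the reference, lincRNA probes lay in a narrower range than mRNA probes. Both channels were well above background on all 8 arrays for 4245 lincRNA and 16505 NM probes. For these, the mean log2 ratio in control mice ran from -0.77 at the lower to 1.30 at the upper decile of lincRNA probes, and from -1.63 to 2.21 for NM probes. A log2 ratio above 1 on every array was found for 425 lincRNA probes (10.01%) and for 18.2% of the NM probes. A log2 ratio below -1 on every array was found for 238 lincRNA probes (5.61%) and for 14.9% of the NM probes. The median log2 ratio of these lincRNA probes on the control arrays averaged 0.10 ± 0.026 (SD, n = 4), and that of the NM probes 0.017 ± 0.021. The loess normalization holds the bulk of each array near 0, so these medians say little about the total amount of either class of RNA. Tested lincRNA probes were also dimmer, with a median log2 Cy5 signal 0.35 over that of their array, where tested NM probes stood 2.28 over it. Dim probes have ratios compressed by the background correction, and the part of this in the narrower range was not tested.

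**Figure D2:**
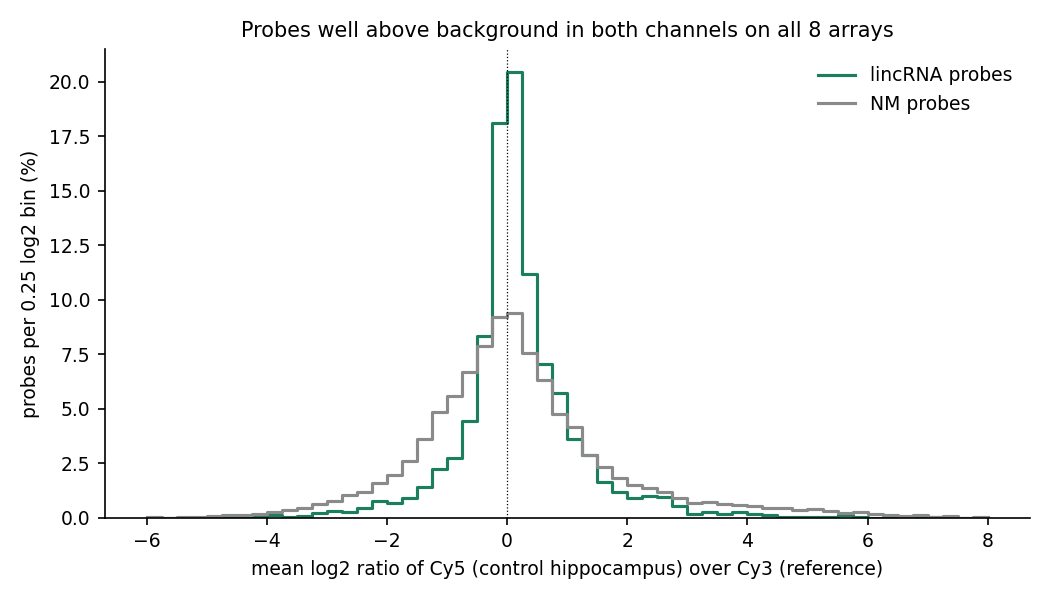
Distribution of the mean log2 ratio of control hippocampus over reference (x axis) for the 4245 lincRNA and 16505 NM probes well above background in both channels on all 8 arrays, as percent of each class per bin (y axis). The lincRNA curve is narrower, with deciles at -0.77 and 1.30 against -1.63 and 2.21.

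Among probes measured in both channels, the 2 furthest above the reference belonged to BRN1-A, a lincRNA named after BRN1, the former name of the brain transcription factor gene Pou3f3. Probe A_30_P01024930 of BRN1-A had log2 ratios of 6.99, 6.86, 7.17 and 7.08 in control mice 1 to 4 and of 6.95, 6.93, 6.99 and 7.01 in BaP-exposed mice 1 to 4. That is a mean 130-fold above the reference in control mice, with groups that overlapped. All 4 BRN1-A probes were well above background in both channels on all 8 arrays, at 50.6 to 130 times the reference. Behind the first 2 of them and ahead of the others stood 2 reverse probes of chr1:42689799-42749799, A_30_P01031206 with a mean log2 ratio of 6.50 ± 0.18 and A_30_P01030648 with 6.47 ± 0.31 (SD, n = 4 control mice). These 2 probes differed from each other by less than their SDs.

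Among probes well above background in both channels on all 8 arrays, the 5 furthest below the reference came from 4 intervals. Probe A_30_P01024163 (chr1:175705225-175717250, reverse) had a mean log2 ratio of -4.98 ± 0.088 in control mice, 31.5-fold under the reference, and its 8 arrays ran from -5.23 to -4.90. Probe A_30_P01019123 (chr17:95150800-95180650, forward) followed at -4.89 ± 0.17, 29.6-fold under the reference. The others were A_30_P01020075 and A_30_P01028673, both to the forward strand of chr9:14460976-14488051, at -4.70 ± 0.22 and -4.30 ± 0.23, and A_30_P01017895 (chr1:175654606-175672031, reverse) at -4.17 ± 0.48 (SD, n = 4 control mice). Neighbours in this order differed by less than the larger of their SDs, except for the step from -4.70 to -4.30.

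A smaller set gave signal in the hippocampus and not in the reference. Cy5 was well above background on all 8 arrays and Cy3 on none for 222 lincRNA probes (1.37%), against 2.39% of NM probes, and the reverse held for 264 lincRNA probes (1.62%) and 1.80% of NM probes. For such probes the ratio is a bound, computed from the mean normalized Cy5 against, on each array, the lowest Cy3 signal well above background or the probe's own where that was higher. The brightest in Cy5 was A_30_P01025310 on the reverse strand of chr2:108456668-108532418, at least 233-fold higher in control hippocampus than in the reference. Of the next 4, 3 probes lay on the forward strand of chr16:40267386-40268181, with bounds of 60.5-fold for A_30_P01028174, 52.2-fold for A_30_P01020887 and 39.4-fold for A_30_P01026559. The other was A_30_P01033303 on chr16:40283097-40284822, forward, at least 35.9-fold higher. None of these 5 was called different in BaP-exposed mice by limma, at adjusted p-values of 0.635, 0.708, 0.909, 0.669 and 0.943 in that order.

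The transcripts known by name gave a reading of the tissue. XIST, the RNA that coats the inactive X chromosome in female cells, was bright in the reference and near background in these males. Its 5 probes were well above background on all 8 arrays in Cy3, and on 0 to 5 arrays in Cy5. The tested probe, A_30_P01023652, had log2 ratios of -5.37, -5.72, -5.84 and -5.27 in control mice 1 to 4 and of -6.13, -5.84, -6.18 and -5.97 in BaP-exposed mice 1 to 4. With Cy5 at the edge of background, these ratios are compressed. Control mouse 3 and BaP-exposed mouse 2 were level, and the groups overlapped there. The log2 fold change was -0.48 (SE 0.14, adjusted p = 0.494 from limma), at -0.44 in the first slide row and -0.52 in the second. It was below 0 under 5 other scalings of the arrays as well. TSIX, its antisense partner, was not tested, and none of its 5 probes was well above background on more than 2 arrays in either channel.

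H19, an imprinted RNA of fetal tissues, was 5.54- to 12.7-fold under the reference on the 4 probes above background in both channels throughout. NEAT1, the scaffold of nuclear paraspeckles, was 6.15- to 9.76-fold under it on all 5 probes. NEAT2, also called Malat1 and found in nuclear speckles, was 6.69- to 8.67-fold under it on all 3 probes. TUG1, a widely expressed nuclear and cytoplasmic lincRNA, was 1.004- to 1.12-fold over the reference on its 5 probes, and a RefSeq probe for Tug1 had a control log2 ratio of 0.51 ± 0.27. HOTAIR, transcribed from the HOXC cluster, had 1 tested probe of 5, and all 5 were well above background in the reference on every array. KCNQ1ot1, an imprinted antisense RNA, had 2 tested probes of 5. The 1 measured in both channels on all 8 arrays was 1.36-fold under the reference. A separate RefSeq probe for Kcnq1ot1, also well above background in both channels on all 8 arrays, lay over it, with a control log2 ratio of 1.62 ± 0.23. NRON, a partner of the transcription factor NFAT, had 2 tested probes of 5, and PINC, first described in mammary gland, 1 of 5. Probes to lincP21, a lincRNA induced by p53, were not tested, because none of the 5 was well above background in Cy5 on more than 1 of the 8 arrays.

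**Figure D3:**
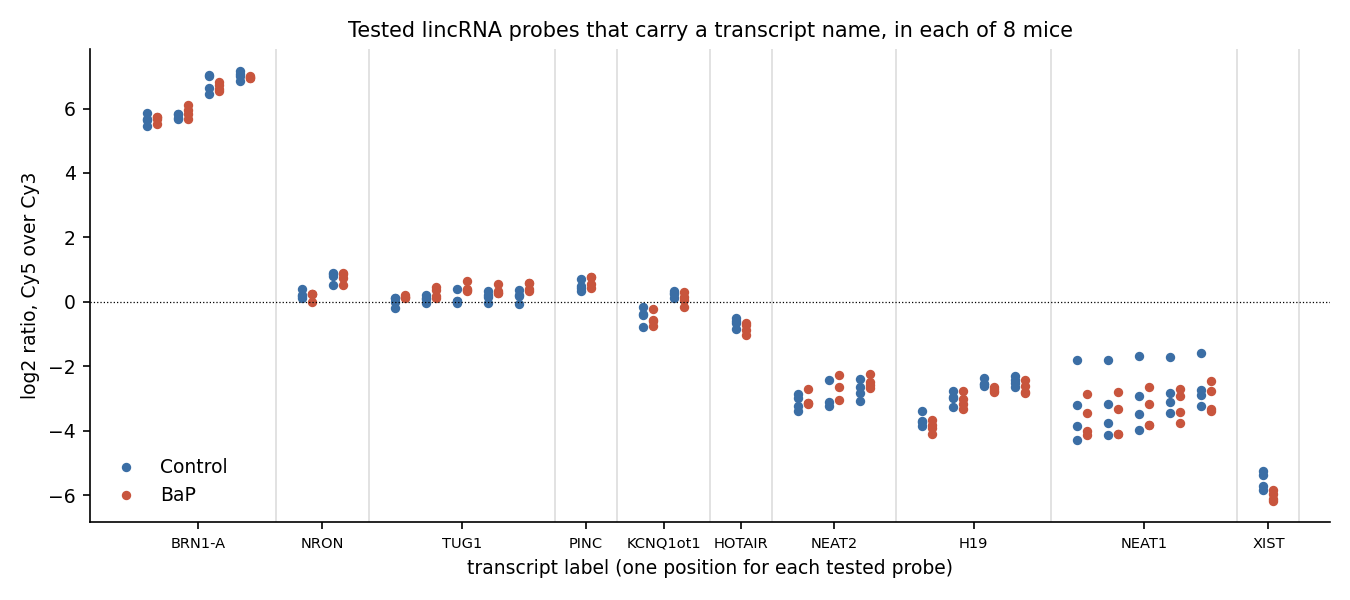
Log2 ratio of Cy5 over Cy3 (y axis) of each tested lincRNA probe that carries a transcript name, with 1 point for each mouse. BRN1-A lies far above 0, TUG1 near 0, and NEAT2, H19, NEAT1 and XIST below it, and control and BaP points overlap for most probes.

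No lincRNA probe passed the threshold for a change with BaP. The threshold was a 1.5-fold change with an adjusted p of 0.05 from limma, after Benjamini-Hochberg correction for the 32600 probes in the fit. By it, 0 of 6680 lincRNA probes were called (all probes: 3 called, 0.0092%). The lowest adjusted p of a lincRNA probe was 0.147 from limma. At an unadjusted p of 0.05, 593 lincRNA probes (8.88%) passed, of which 256 were higher in BaP-exposed mice (3.83%) and 337 lower (5.04%). Of all tested probes 8.76% passed, 4.53% higher and 4.23% lower. With a 1.5-fold change as well, 30 lincRNA probes passed (0.449%), 15 in each direction, against 0.528% of all tested probes (0.304% higher and 0.224% lower). These shares of lincRNA probes lay near the shares of all probes. After median centring in place of loess, the unadjusted split was 591 higher and 48 lower, so the balance of directions depends on the normalization. As in any bulk tissue, fewer cells that carry a transcript and less of it in each cell cannot be told apart.

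Changes of lincRNA probes were small. A fold change of 1.5 or more, whatever its p, was reached by 38 of 6680 lincRNA probes (0.569%), against 1.02% of all tested probes and 1.31% of NM probes. Of these, 21 were higher (all probes 0.681%) and 17 lower (all probes 0.344%). Between the lowest 5% and the highest 5% of probes, lincRNA log2 fold changes lay between -0.28 and 0.23 and those of NM probes between -0.27 and 0.31. The median residual SD was close in both, 0.149 on the log2 scale for lincRNA and 0.153 for NM probes. The median log2 fold change was -0.0098 over lincRNA probes and -0.0043 over all tested probes, with 3123 lincRNA probes higher and 3557 lower (53.2% lower).

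For 335 lincRNA probes (5.01%) the control and BaP mice did not overlap, that is, every value of a group lay beyond every value of the other, against 5.06% of all tested probes. Of these, 139 were higher in BaP-exposed mice (2.08%, all probes 2.52%) and 196 lower (2.93%, all probes 2.54%). By chromosome, their share of the tested lincRNA probes ran from 2.28% on chromosome 18 (5 of 219) to 8.25% on chromosome 17 (33 of 400), a description without a test. Of the 33 on chromosome 17, 26 were lower, and overlapping intervals of 1 locus account for 8 of these.

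The slide rows share no mouse, and each gave a fold change of its own from 2 control and 2 BaP-exposed mice. Over 6676 lincRNA probes, the fold changes of the rows had a Pearson r of 0.16 (Spearman rho 0.15), and 54.0% had the same sign. Over 19574 NM probes, r was 0.15 (rho 0.13) and 54.1% had the same sign. These correlations are across probes of the same arrays, which are not independent replicates.

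The 6 largest increases without overlap were led by A_30_P01027337, on the reverse strand of chr8:48480224-48480698. Choice by lack of overlap fixes the sign in both slide rows, for these probes and for the decreases below. Its log2 ratios were 2.41, 2.90, 3.23 and 3.08 in control mice 1 to 4 and 3.71, 3.70, 3.44 and 3.36 in BaP-exposed mice 1 to 4. Control mouse 1 was lowest, and control mouse 3 came close to BaP-exposed mouse 4. The log2 fold change was 0.65 (SE 0.17, adjusted p = 0.478 from limma), at 1.05 in the first slide row and 0.25 in the second. Cy3 was well above background on 1 of 8 arrays for this probe, so its ratios are against a reference near background.

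Probe A_30_P01024788, on the reverse strand of chr3:79069438-79073704, had the lowest adjusted p of the lincRNA probes. Its log2 ratios were 1.45, 1.505, 1.38 and 1.52 in control mice 1 to 4 and 2.12, 2.01, 1.89 and 2.05 in BaP-exposed mice 1 to 4. Each group was tight, and the groups did not overlap. The log2 fold change was 0.55 (SE 0.080, adjusted p = 0.147 from limma), at 0.59 in the first slide row and 0.52 in the second. Probe A_30_P01028635, on the reverse strand of chr8:26343277-26352902, had log2 ratios of -0.039, -0.24, 0.0078 and -0.17 in control mice and of 0.37, 0.67, 0.48 and 0.30 in BaP-exposed mice, with a log2 fold change of 0.56 (SE 0.10, adjusted p = 0.260 from limma), at 0.66 and 0.47 by slide row. Probe A_30_P01028905, on the reverse strand of chr8:26212577-26218527, lay from -0.74 to -0.67 in control mice and from -0.33 to -0.0058 in BaP-exposed mice, with Cy5 well above background on 5 of 8 arrays. Its log2 fold change was 0.44 in the first slide row and 0.57 in the second. Over the alternatives of the processing it ran from -0.064, with groups taken from the source names, to 1.26. The 3 tested probes of its interval had log2 fold changes of -0.055 to 0.51. The remaining increases, A_30_P01033040 (chr8:73645975-73696275, forward) and A_30_P01019479 (chr14:26834450-26847000, forward), had log2 fold changes of 0.64 and 0.58, at 0.80 and 0.48 by slide row for the former and 0.68 and 0.47 for the latter. Their BaP-exposed mice were spread widely, from 1.16 to 2.06 and from 0.22 to 1.07.

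The 6 largest decreases had adjusted p-values of 0.325 to 0.528 from limma. Probe A_30_P01033231, on the reverse strand of chr6:47595238-47601893, had log2 ratios of 1.47, 0.78, 0.61 and 1.02 in control mice 1 to 4 and of 0.20, -0.14, 0.34 and 0.45 in BaP-exposed mice 1 to 4. The log2 fold change was -0.76 (SE 0.19), at -1.10 in the first slide row and -0.42 in the second, and control mouse 1 stood above the rest. Probe A_30_P01026609, from a reverse-strand interval of chromosome 18, lay from 1.27 to 1.39 in control mice and from 0.20 to 0.95 in BaP-exposed mice, a log2 fold change of -0.71 (SE 0.14, adjusted p = 0.325 from limma). Its control mice were close together and its BaP-exposed mice were not. The slide rows gave -0.77 and -0.65. The other tested probes of this interval moved less, and over its 9 the log2 fold changes averaged -0.19, with 1 above 0 and only this one without overlap.

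A pair of the decreases came from neighbouring forward intervals of chromosome 7. Probe A_30_P01019879 (chr7:67001975-67050575) had a mean log2 ratio of 3.79 ± 0.31 in control and 3.10 ± 0.23 in BaP-exposed mice, and A_30_P01020890 (chr7:66926500-66952100) was at 2.80 ± 0.48 in control and 2.19 ± 0.32 in BaP-exposed mice (SD, n = 4 each), neither called. For A_30_P01019879 the reference channel was well above background on 1 of 8 arrays. By slide row, the log2 fold changes were -0.53 and -0.84 for A_30_P01019879 and -0.48 and -0.74 for A_30_P01020890. The interval at chr7:67001975 had 5 tested probes, all with a fold change under 0 and 2 without overlap, and the one at chr7:66926500 had 4, again all under 0 and 2 without overlap. Of all tested probes, 2.54% were lower without overlap. The remaining decreases were A_30_P01033575 (chr16:8738782-8830148, reverse) and A_30_P01033149 (chr9:68349343-68411643, forward), with log2 fold changes of -0.65 and -0.63. The slide rows gave -0.63 and -0.68 for A_30_P01033575 and -0.37 and -0.88 for A_30_P01033149. The interval of A_30_P01033575 had 4 tested probes with log2 fold changes of -0.65 to 0.085, and that of A_30_P01033149 had 3 with -0.63 to 0.081. In each, 1 probe was above 0 and 1 had no overlap. With groups taken from the source names, the fold changes of these 4 decreases turned to values above 0, from 0.022 to 0.25. Probe A_30_P01033149 was far above the reference, 52.0-fold in control mice, with the reference channel well above background on 7 of 8 arrays.

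**Figure D4:**
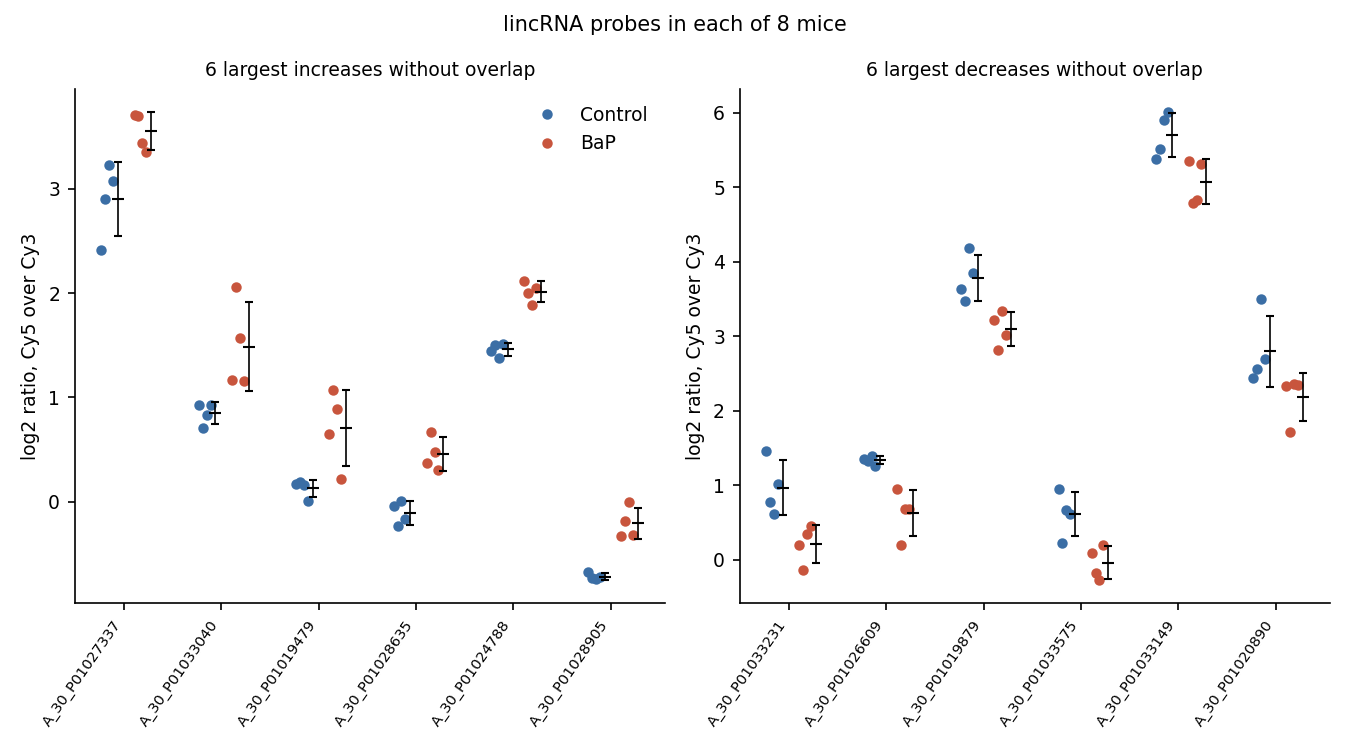
Log2 ratio of Cy5 over Cy3 (y axis) in each mouse for the 6 lincRNA probes with the largest increase (left) and the 6 with the largest decrease (right) among those whose groups did not overlap. Bars give the mean and SD of 4 mice, and no groups overlap because the probes were chosen so.

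Pairs of probes from 1 interval shared a side of 0 somewhat less often than pairs from 1 NM accession. Of 1721 strand-specific intervals with at least 2 tested probes, 844 (49.0%) had all of them on 1 side of 0, and of 1042 with at least 3, 452 did (43.4%), 199 higher and 253 lower in BaP-exposed mice. Between 2 probes of the same strand-specific interval, log2 fold changes had a Pearson r of 0.48 (Spearman rho 0.40, 1721 pairs), and 61.8% of the pairs had the same sign. Between 2 probes of the same NM accession, r was 0.52 (rho 0.47, 3575 pairs), with 65.1% of the same sign. These are descriptions across probes of the same 8 arrays.

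In 41 of the 1721 strand-specific intervals with at least 2 tested probes (2.38%), at least 2 probes had no overlap of the groups in the same direction, 14 higher and 27 lower. Of 3575 NM accessions with at least 2 tested probes, 32 did (0.895%), 22 higher and 10 lower. The intervals had more tested probes, 3.12 on average against 2.15. Among targets with 2 tested probes, the shares were 4 of 679 intervals (0.589%) and 18 of 3101 accessions (0.580%). Merged where they overlap, the 41 intervals formed 35 loci. In 28 of these loci all tested probes lay on 1 side of 0, 10 higher and 18 lower. The loci were chosen by these values, so their agreement is a description. Under 5 other scalings of the same arrays, each tested probe stayed on its side of 0 at 10 of the 10 higher and 7 of the 18 lower loci. One of these scalings, median centring, raised the median of all tested probes to 0.17, towards the higher loci. Without it the counts were 10 of 10 and 10 of 18. Read against the median of all tested probes under each of the 5 scalings, they were 6 of 10 and 12 of 18.

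The locus with the most such probes was chr17:39960567-39992817, where 4 overlapping labels on both strands had 15 tested probes. Which transcript these probes read was not checked, as no mm9 annotation was used. All 15 were lower in BaP-exposed mice, by -0.52 to -0.25 on the log2 scale (SE 0.082 to 0.18). Of them, 8 had groups that did not overlap (all probes 2.54% lower). An unadjusted p of 0.05 or less by limma was found for 15 (all probes 4.23% lower). Over the 13 probes with a value in every mouse, the mean log2 ratio was -0.43, -0.40, -0.19 and -0.36 in control mice 1 to 4 and -0.58, -1.003, -0.82 and -0.55 in BaP-exposed mice 1 to 4. BaP-exposed mice 2 and 3 were furthest down, and BaP-exposed mice 1 and 4 lay nearest to the control mice. The other 2 probes had no value in control mouse 1. The reverse probes of the long interval lay in a band of -0.52 to -0.42, and the forward probes of it in one of -0.37 to -0.25. By slide row, the 15 fold changes ran from -0.52 to -0.19 in the first and from -0.61 to -0.17 in the second. For the 8 without overlap, the sign in each row followed from that lack of overlap. The lowest adjusted p was 0.381 from limma, and under 4 other scalings all 15 were below 0. After median centring 11 of the 15 were below 0 and all 15 below the median of all tested probes, which was 0.17 there. With groups taken from the source names the same fold changes ran from -0.16 to 0.11.

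On the reverse strand of chrX:98716130-98716340, an interval of 211 bp, both probes were lower in BaP-exposed mice without overlap (all probes 2.54%). Probe A_30_P01021433 had log2 ratios of 0.33, 0.60, 0.36 and 0.47 in control mice 1 to 4 and of -0.078, -0.22, -0.091 and -0.14 in BaP-exposed mice 1 to 4. The ratio was above 0 in each control mouse and below 0 in each BaP-exposed mouse. The log2 fold change was -0.57 (SE 0.086, adjusted p = 0.151 from limma), at -0.61 in the first slide row and -0.53 in the second. The other probe, A_30_P01022495, had a log2 fold change of -0.49 (SE 0.087, adjusted p = 0.260 from limma), at -0.44 and -0.53 by slide row. This locus was singled out after its values were seen, and the lack of overlap fixes the sign in both slide rows. With groups taken from the source names, the fold changes of both probes ran from -0.042 to 0.046.

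At chr8:26343277-26352902, 8 tested probes on both strands were all higher in BaP-exposed mice, by 0.13 to 0.56. Of these, 5 had groups that did not overlap (all probes 2.52% higher). The mean over the 8 probes was 0.081, -0.068, 0.10 and 0.016 in control mice 1 to 4 and 0.28, 0.46, 0.38 and 0.24 in BaP-exposed mice 1 to 4, which sets each BaP-exposed mouse above each control mouse. In both slide rows all 8 fold changes were above 0, which for the 5 without overlap followed from that lack of overlap. The 3 tested probes of chr8:48480224-48480698 were higher as well, by 0.32 to 0.65, and above 0 in both slide rows. For 2 of them the row signs again followed from the lack of overlap. At chr1:87419050-87452625, forward, 4 probes were lower by -0.47 to -0.24, and the mean over the 3 of them with a value in every mouse was 0.85 to 1.25 in control mice and 0.56 to 0.70 in BaP-exposed mice. None of the probes at these loci was called.

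**Figure D5:**
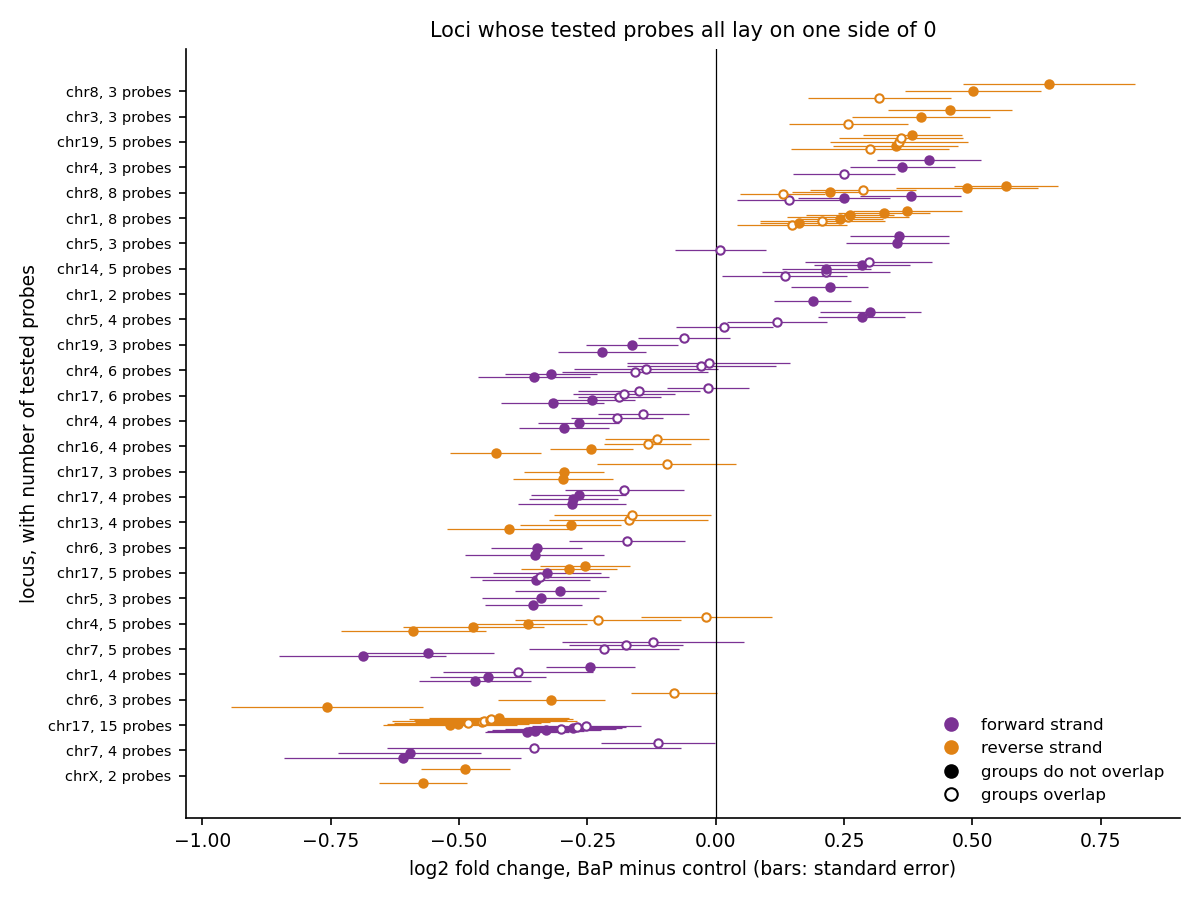
Log2 fold change of BaP-exposed over control mice (x axis, bars are standard errors) for each tested probe of the 28 loci with at least 2 non-overlapping probes and all tested probes on 1 side of 0. Rows are loci by chromosome, colours give the strand, and filled points have groups that do not overlap. The chromosome 17 locus with 15 probes lies between -0.52 and -0.25, with its reverse probes further from 0.

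Of the transcripts known by name, TUG1 and NEAT1 had 5 tested probes each on 1 side of 0. Probe A_30_P01032690 of TUG1 had log2 ratios of 0.20, -0.084, 0.35 and 0.18 in control mice 1 to 4 and of 0.40, 0.58, 0.57 and 0.33 in BaP-exposed mice 1 to 4. Only control mouse 3 reached into the BaP group. The 5 log2 fold changes of TUG1 were 0.15 to 0.33, above 0 in both slide rows and under 5 other scalings, with a lowest adjusted p of 0.514 from limma. A separate RefSeq probe for Tug1 had a log2 fold change of 0.29 (SE 0.16, adjusted p = 0.619 from limma).

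NEAT1 varied widely between mice. Its probe A_30_P01025798 had log2 ratios of -3.21, -1.81, -4.28 and -3.85 in control mice 1 to 4 and of -4.02, -3.46, -2.87 and -4.12 in BaP-exposed mice 1 to 4. Control mouse 2 was highest and control mouse 3 lowest on this probe. The residual SD of the 5 probes was 0.596 to 0.866 on the log2 scale, and 3 of them ranked 3, 4 and 6 among all 6680 tested lincRNA probes. The log2 fold changes of -0.44 to -0.33 were not shared by the slide rows, which gave values from -1.23 to -0.92 in the first slide row and from 0.18 to 0.57 in the second. The RefSeq probe for Neat1 had a control SD of 1.05.

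For NEAT2, 3 log2 fold changes of 0.071 to 0.26 were found, with groups that overlapped, and the slide rows gave -0.24 to 0.0029 and 0.39 to 0.51. For H19, 4 tested probes had log2 fold changes of -0.21 to -0.085, with 1 whose groups did not overlap (all probes 2.54% lower). After median centring all 4 were above 0 but below the median of all tested probes of 0.17, and with the Cy5 channel alone 1 of the 4 was above 0. BRN1-A had log2 fold changes of -0.11 to 0.13, and the slide rows gave 0.017 to 0.27 and -0.34 to -0.0057. None of these probes was called. The most variable of all tested lincRNA probes was A_30_P01019836 (chr7:67119535-67120213, reverse), with a residual SD of 0.975 and log2 ratios from 1.46 to 4.06 over the 8 mice.

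A list of 37 long non-coding RNA genes with RefSeq accessions was set beside these probes. Of 22 on the array 20 were tested, with 4 higher and 16 lower in BaP-exposed mice, where 51.2% of all tested probes were lower. Of the 20, 0 were called and 0 passed an unadjusted p of 0.05 by limma (8.76% of all probes), and the median log2 fold change was -0.14 against -0.0043 over all tested probes. After median centring 16 were higher and 4 lower, with a median of 0.068 against 0.17 over all tested probes. Meg3, an imprinted RNA abundant in brain, had a control log2 ratio of 4.31 ± 0.26 and a log2 fold change of -0.27 (SE 0.12, adjusted p = 0.577 from limma), and Norad, which sequesters Pumilio proteins, one of -0.27 (SE 0.14, adjusted p = 0.615 from limma).

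Markers of other cells were read on the same arrays. The mean log2 ratio of 8 tested erythroid genes was 3.46 to 3.60 in control mice and 2.70 to 2.98 in BaP-exposed mice, with 7 of 8 lower and 2 called, where 51.2% of all tested probes were lower and 0.0092% called. Of the 8, 6 were lower at an unadjusted p of 0.05 by limma (all probes 4.23%) and 6 lower without overlap (all probes 2.54%). The mean of 10 choroid plexus genes was 2.29 to 4.13 in control mice and 1.79 to 5.24 in BaP-exposed mice, with 10 of 10 higher, 0 called and groups that overlapped. Lists for endothelium, meninges, thalamus and myelin had 8, 6, 5 and 5 tested genes and 0 called. The part of any of these in the lincRNA values was not tested.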

How the data were processed

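Hippocampal RNA of 4 control and 4 BaP-exposed mice was measured on 2-color arrays. The authors deposited the intensity of each spot in both channels, with flags and the scanner's log10 ratio of the dyes, from Agilent Feature Extraction 11.0.1.1. The authors also deposited a table of log2 ratios, which holds Cy5 over Cy3 and tracked the log2 ratios computed here with a slope near 1. The normalization named in the paper is LOWESS. The test named in the paper is a microarray ANOVA.

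Spot medians were background-corrected with normexp (offset 50) (limma 3.58.1, R 4.3.3), control spots removed, outlier spots set to missing, and log2 ratios normalized by loess and averaged per probe. Probes with the Cy5 mark for a signal well above background on 4 or more of 8 arrays, 32600 of 55681, were compared with lmFit and eBayes at an adjusted p (Benjamini-Hochberg) of 0.05 and a fold change of 1.5. Summaries used pandas 2.3.3, numpy 2.4.6 and scipy 1.17.1 (Python 3.11.15). The fit was tested on simulated data.

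The lincRNA probes and lists were chosen with earlier results of these data known. Named probes were those past the threshold (0), the 6 largest increases and decreases without overlap, the 5 highest and lowest against the reference, the 5 brightest in Cy5 alone and the intervals with the most probes. Loci, NEAT1, TUG1 and the most variable probe were named after their values were seen. RefSeq accessions were named with a gene table of GRCm38.p6 (26083 of 26536 NM probes, 98.3%). Intervals are in mm9, for which no annotation was used here, so they carry no gene name, and the build of the 3 intervals without a strand is not given in the sources used here. Alternatives covered background correction, normalization, the deposited ratios, filters, blocks, leaving out each mouse, and the labels in conflict. Signal over background and the number of arrays limit the precision.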

Additional observations from a re-analysis of the deposited data

Results flagged for a closer look

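In 50 groups of 4 mice checked, 3 had a mouse whose gap to its nearest neighbour took up more than the critical share of the range, where chance gives about 1 in 20 groups, or 2.5. For A_30_P01019479 the gap was 0.849 of the range in control mice, with control mouse 4 low. For A_30_P01020890 it was 0.956 in BaP-exposed mice, with BaP-exposed mouse 2 low. For A_30_P01020075 it was 0.856 in control mice, with control mouse 3 low.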

How the results depend on the processing

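The count of 0 called lincRNA probes was the same under each alternative, and leaving out 1 mouse at a time gave 0 to 0. The count at an unadjusted p of 0.05 was 402 to 638 with 1 mouse left out, 1023 without the filter on dim probes (which tests more probes), 267 with groups from the source names and 384 in the second slide row alone (a choice made after seeing the data). The median log2 fold change was -0.019 to -0.00074 with 1 mouse left out. It was 0.082 after median centring, where all tested probes shifted to 0.17, so that lincRNA probes lay below that shift. It was 0.014 with the scanner's log ratio, 0.023 with the source names, 0.016 in the 4 arrays whose labels agree and -0.033 in the second slide row alone. The control share well above background was 70.1% with the scanner's weaker mark of a positive and significant signal, and 39.5% to 45.0% with 1 control mouse left out. The median log2 ratio of lincRNA probes in control mice was 0.0095 over all of them, 0.061 after median centring, 0 with the scanner's ratio, -0.028 in the deposited log2 table and 0.10 over probes measured in both channels. The cause of these moves was not tested beyond the changes named.

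With the source names as groups, 5 of the 12 probes with the largest changes turned sign: A_30_P01028905 to -0.064, A_30_P01019879 to 0.15, A_30_P01033575 to 0.022, A_30_P01033149 to 0.25 and A_30_P01020890 to 0.13. The others kept their sign and moved towards 0, such as A_30_P01024788 from 0.55 to 0.034 and A_30_P01026609 from -0.71 to -0.061. The source names exchange the second slide row alone, so for these 12 the sign under them says only which row had the larger change.

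Mice with the same number also lay in the same slide row, but the labels tie them in no other way, and the correlations of their deviations were -0.35, 0.031, -0.0072 and -0.0066. With the replicate number as a block, 0 lincRNA probes were called, 505 passed an unadjusted p of 0.05 and the median log2 fold change was -0.0099.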
